A study of Mus musculus with 6 samples.

Results

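The genes described here are 10 feedback genes of the RAS-ERK pathway, also called the MAP kinase pathway: the phosphatase genes Dusp4, Dusp5 and Dusp6, the Sprouty genes Spry1, Spry2 and Spry4, the Sprouty-related genes Spred1 and Spred2, and the transcription factor genes Etv4 and Etv5. They were taken by symbol from a read count table of 35275 Ensembl gene IDs, and all 10 were found and passed the filter on low counts. The table comes from Melb-a, an immortal line of mouse melanoblasts (the precursors of pigment cells) with the labelled genotype C57BL/6J. All samples came from that 1 line.

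Before the experiment the cells grew in medium with fibroblast growth factor and stem cell factor, which both signal through receptor tyrosine kinases to ERK. Every sample was then moved to DMEM with 10% serum, 2 nM of the melanocyte-stimulating hormone analog NDP-alpha MSH and 200 nM of the phorbol ester phorbol-myristate-acetate (PMA), a medium whose listed parts name neither growth factor. For 48 h that medium also held vehicle (DMSO, 3 libraries) or 10 µM iBRD9 (3 libraries), an inhibitor of the bromodomain of BRD9, a subunit of the chromatin remodeling complex SWI/SNF. The series has no cells without PMA, so the values compare iBRD9 with vehicle in cells that had all received this phorbol ester. In bulk RNA, fewer cells that express a gene and less of its RNA per cell cannot be told apart.

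ERK is a kinase that growth factor receptors and phorbol esters switch on through RAS, RAF and MEK, and it induces genes whose products restrain the same cascade. DUSP4 and DUSP5 remove the activating phosphates from MAP kinases in the nucleus and DUSP6 does so for ERK in the cytoplasm. Sprouty and SPRED proteins act further upstream, at the level of RAS and RAF. ETV4 and ETV5 are ETS transcription factors of the PEA3 group that are induced by ERK and carry its signal to other genes. In melanocytes the pathway serves growth and survival, and loss of SPRED1 in humans causes Legius syndrome, with pigmented skin spots.

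The libraries held 22846391 to 29680952 counts. Levels below are CPM, the share of a library's counts scaled with edgeR's TMM factors, given as mean ± SD of 3 libraries. Differences are log2 fold changes of iBRD9 over DMSO from edgeR's quasi-likelihood test, with Benjamini-Hochberg adjusted p over 13602 tested genes and a call at an adjusted p under 0.05. The series' design text calls the samples of each treatment independent. DMSO replicate 1 stood apart from the other vehicle libraries: its root mean square log2 CPM difference to them was 0.44 and 0.49. The same measure was 0.29 between DMSO replicates 2 and 3 and 0.25 to 0.26 between the iBRD9 libraries. DMSO replicate 1 also lay nearer to the iBRD9 libraries (0.69 to 0.72) than DMSO replicates 2 and 3 did (0.85 to 0.90). Markers of the melanocyte lineage were abundant in every library, with a summed level of 16721 to 19305 CPM over 8 genes with DMSO and 15367 to 16950 CPM with iBRD9. Most of that sum was Tyrp1 and Dct, and single markers moved further. Of the 8 markers, 5 were called lower and 1 higher, against 30.9% and 29.8% of all tested genes. Tyr fell from 537 ± 14.5 to 87.8 ± 3.72 CPM (-2.61), Slc45a2 by 1.22, Sox10 by 0.92, Tyrp1 by 0.66 and Mlana by 0.62 on the log2 scale, and Dct rose (0.31). The part of this shift in the results below was not tested.

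Markers of other cell types were mostly near 0. Of 7 keratinocyte markers, 6 stayed under 1 CPM in every library and Krt5 and Krt1 were at 0. Krt10 stood at 3.83 ± 0.314 CPM with DMSO and 3.88 ± 0.393 CPM with iBRD9. Of 5 immune cell markers, 4 stayed under 1 CPM, with Ptprc and Cd3e at 0. Cd68 fell from 6.78 ± 0.962 to 4.19 ± 0.389 CPM (-0.69, edgeR adjusted p = 0.00399). Of 4 endothelial markers, 3 stayed under 1 CPM, while Kdr rose from 0.941 ± 0.157 to 3.98 ± 1.01 CPM. The summed level of 7 fibroblast markers ran from 76.1 to 100.4 CPM with DMSO and from 132 to 146 CPM with iBRD9, mostly Dcn (51.2 ± 7.38 and 120.5 ± 7.09 CPM). Within that list Dcn and Col1a1 rose, Col1a2 fell from 29.6 ± 6.02 to 7.64 ± 0.699 CPM, Col3a1 and Lum stayed under 1 CPM, and Pdgfra and Pdgfrb did not pass the test. The part of these markers in the results was not tested either.

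The feedback genes did not move together. Spry2 and Spred1 rose, Etv4, Spry1 and Dusp4 fell, and the other 5 did not pass the test, so 5 of 10 genes were called, where 60.7% of all tested genes were called (29.8% higher and 30.9% lower). Groups did not overlap in the same 5 genes, against 68.0% of all tested genes. The median log2 fold change of the 10 genes was -0.18, and that of all tested genes was 0.01. Without DMSO replicate 1, 4 feedback genes were called higher and 3 lower, where 74.0% of all tested genes were called.

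**Figure D1:**
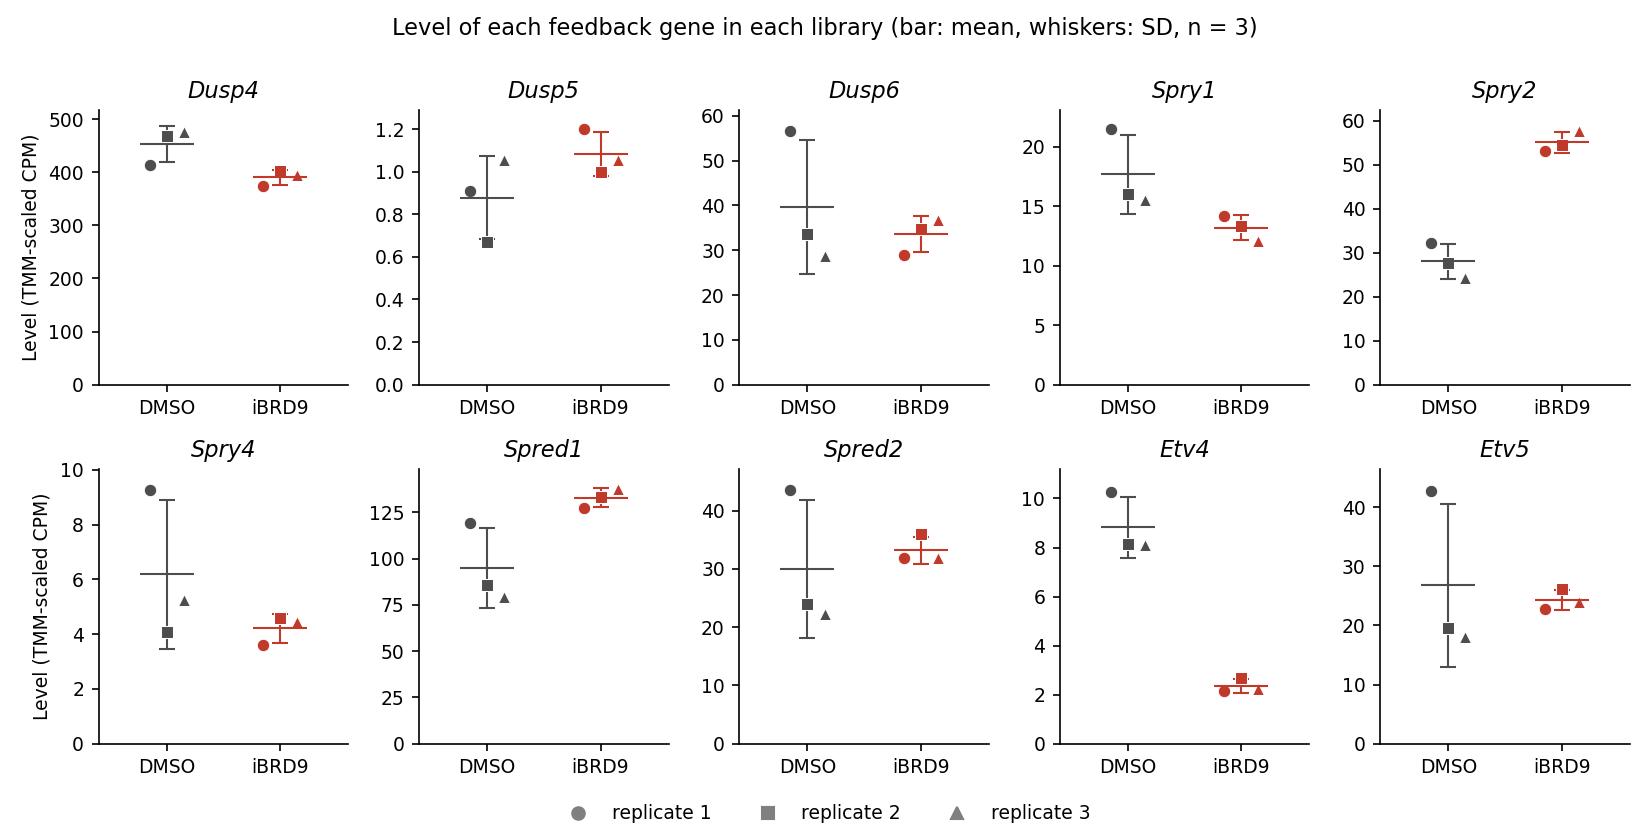
Level of each of the 10 feedback genes in each library, in TMM-scaled CPM on an axis from 0. Grey symbols are the DMSO libraries and red symbols the iBRD9 libraries, the shape gives the replicate, the bar is the mean and the whiskers the SD of 3 libraries. Etv4 fell from 8.82 to 2.35 CPM and Spry2 rose from 28.0 to 55.1 CPM with no overlap. DMSO replicate 1 (circle) was the highest library for Dusp6, Spry1, Spry4, Spred2, Etv4 and Etv5.

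Among the phosphatases, Dusp4 (ENSMUSG00000031530) was the most abundant per kilobase and fell slightly. Vehicle libraries held 414, 468 and 476 CPM of it, and iBRD9 libraries 374, 402 and 395 CPM. Each iBRD9 library lay below each DMSO library, by a small margin. This is a log2 fold change of -0.21 (SE 0.069, edgeR adjusted p = 0.0260). The call changed with the libraries and the scaling: it was kept without DMSO replicate 1 (-0.28, adjusted p = 3.43e-06) and lost without any other 1 library (adjusted p from 0.0561 to 0.0971) and with library size alone (-0.11, adjusted p = 0.144).

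Dusp6 (ENSMUSG00000019960), the cytoplasmic phosphatase of ERK and a common readout of its activity, had 56.7, 33.6 and 28.6 CPM with DMSO and 29.0, 34.9 and 36.8 CPM with iBRD9. DMSO replicate 1 was the highest of all, and the other libraries of both groups overlapped. Over all libraries the log2 fold change was -0.24 (SE 0.229, edgeR adjusted p = 0.385). Without DMSO replicate 1 it was 0.09 (adjusted p = 0.383). The 250 bases before its RefSeq start site (GRCm38.p6, chr10:99262981-99263230, + strand) are shown because they hold a match to the octamer bound by CIC, the repressor that ERK releases from ETV and feedback genes. The match is in capitals, 24 bases before the start, and reads TCAATGGA on the other strand.
Dusp6: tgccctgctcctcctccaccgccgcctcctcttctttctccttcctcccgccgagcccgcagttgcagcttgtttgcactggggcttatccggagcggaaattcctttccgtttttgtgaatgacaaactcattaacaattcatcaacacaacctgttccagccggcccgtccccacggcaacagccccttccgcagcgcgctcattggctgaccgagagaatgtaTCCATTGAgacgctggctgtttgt

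Dusp5 (ENSMUSG00000034765), a nuclear phosphatase of ERK, was near the floor. Its raw counts were 21, 17 and 25 with DMSO and 37, 25 and 25 with iBRD9, or 0.879 ± 0.194 and 1.09 ± 0.104 CPM. The groups overlapped, and the log2 fold change was 0.31 (SE 0.254, edgeR adjusted p = 0.307). Without DMSO replicate 2 it was 0.14 (adjusted p = 0.688).

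The Sprouty genes parted. Spry2 (ENSMUSG00000022114), which binds the ubiquitin ligase CBL and restrains receptor signals to RAS and RAF, nearly doubled: it stood at 32.1, 27.7 and 24.3 CPM with DMSO and 53.1, 54.5 and 57.8 CPM with iBRD9. All iBRD9 libraries lay far above all DMSO libraries. Its log2 fold change was 0.97 (SE 0.10, edgeR adjusted p = 9.80e-05), and it stayed between 0.88 and 1.08 and called in all 14 alternatives. The 250 bases before its RefSeq start site (GRCm38.p6, chr14:105896820-105897069, - strand) are shown as those of the risen Sprouty gene, which hold the CIC octamer as well, in capitals, 54 bases before the start. It reads TCAATGAA on the other strand.
Spry2: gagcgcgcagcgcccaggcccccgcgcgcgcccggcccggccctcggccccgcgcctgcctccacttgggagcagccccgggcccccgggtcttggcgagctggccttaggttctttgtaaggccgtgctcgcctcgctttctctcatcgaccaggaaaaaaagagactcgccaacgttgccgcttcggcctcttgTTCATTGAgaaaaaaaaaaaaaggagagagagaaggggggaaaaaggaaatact

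RefSeq windows of this kind were at hand for 7 of the 10 genes, in 8 windows since Etv5 has a pair. Dusp4, Spry4 and Etv4 had no window and were not searched. The octamer was searched on both strands in the forms TGAATGAA, TGAATGGA, TCAATGAA and TCAATGGA, and 3.19% of 32851 windows of the same length hold one, 2 of the 8 member windows among them. Dusp6 and Spry2, which share it, differed in their response to iBRD9. The ETS site CCGGAAGT (2.88% of all windows), the AP-1 site TGANTCA (6.75%) and the cAMP response element TGACGTCA (1.55%) were in 0 of the 8. An E-box (CATGTG or CACGTG, 17.6%) was in that of Spry1, and the CArG box of serum response factor (1.47%) was in that of Dusp5. These are matches of letters in short windows, not measured sites.

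Spry1 (ENSMUSG00000037211) fell. Its levels were 21.5, 16.1 and 15.5 CPM with DMSO and 14.2, 13.3 and 12.1 CPM with iBRD9. The groups did not overlap, but DMSO replicates 2 and 3 lay closer to iBRD9 than to DMSO replicate 1. The log2 fold change was -0.42 (SE 0.138, edgeR adjusted p = 0.0275). Without DMSO replicate 1 it was -0.26 and still called (adjusted p = 0.0134), and the call was lost with library size alone (-0.32, adjusted p = 0.0968), without iBRD9 replicate 2 (adjusted p = 0.0704) and without iBRD9 replicate 3 (adjusted p = 0.0971).

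Spry4 (ENSMUSG00000024427), the lowest per kilobase of the Sprouty genes measured, had 9.25, 4.06 and 5.23 CPM with DMSO and 3.60, 4.60 and 4.43 CPM with iBRD9. DMSO replicate 1 was the highest of all, and the remaining libraries overlapped. The log2 fold change was -0.55 (SE 0.285, edgeR adjusted p = 0.124). It was -0.16 without DMSO replicate 1 (adjusted p = 0.378) and passed without DMSO replicate 2 (-0.79, adjusted p = 0.0314).

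The SPRED proteins bind neurofibromin, the RAS GTPase activator encoded by Nf1, and bring it to the membrane. Spred1 (ENSMUSG00000027351) rose, from 119.5, 85.5 and 79.5 CPM with DMSO to 127, 133 and 138 CPM with iBRD9. The iBRD9 libraries lay close together, and DMSO replicate 1 came near them from below. Spred1 had a log2 fold change of 0.49 (SE 0.138, edgeR adjusted p = 0.0146), with 0.68 without DMSO replicate 1 (adjusted p = 1.23e-11). The call was lost without DMSO replicate 2 (0.41, adjusted p = 0.0572) and without iBRD9 replicate 3 (0.46, adjusted p = 0.0541).

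Spred2 (ENSMUSG00000045671) had 43.5, 24.0 and 22.2 CPM with DMSO and 31.9, 35.9 and 31.8 CPM with iBRD9. DMSO replicate 1 lay above and the other DMSO libraries below all iBRD9 libraries. Spred2 had a log2 fold change of 0.15 (SE 0.228, edgeR adjusted p = 0.580). Without DMSO replicate 1 it was 0.51 and called (adjusted p = 9.71e-07), and without DMSO replicate 3 it was -0.03.

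Spred3 (ENSMUSG00000037239), the remaining gene of that family, rose from 8.07, 5.48 and 6.79 CPM with DMSO to 14.0, 15.6 and 16.0 CPM with iBRD9. The groups did not overlap. Its log2 fold change was 1.17 (SE 0.143, edgeR adjusted p = 0.000235), and the gene was called in all 14 alternatives. Spry3 is not analysed here.

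Etv4 (ENSMUSG00000017724) had the largest change of the 10 genes. Vehicle libraries held 10.2, 8.12 and 8.09 CPM of it and iBRD9 libraries 2.14, 2.68 and 2.24 CPM, from 192 to 236 raw counts against 53 to 67. All iBRD9 libraries lay far below all DMSO libraries. Its log2 fold change was -1.91 (SE 0.157, edgeR adjusted p = 3.38e-05), and it stayed between -2.01 and -1.80 and called in all 14 alternatives.

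Etv5 (ENSMUSG00000013089), its close relative, did not follow. Its levels were 42.7, 19.6 and 18.0 CPM with DMSO and 22.8, 26.1 and 23.9 CPM with iBRD9. The iBRD9 libraries lay between DMSO replicate 1 and the other DMSO libraries. The log2 fold change was -0.14 (SE 0.292, edgeR adjusted p = 0.699), and without DMSO replicate 1 the sign turned and the gene was called higher (0.36, adjusted p = 0.000347). Etv1 (ENSMUSG00000004151), the third PEA3 gene, had 24.7, 19.1 and 14.8 CPM with DMSO and 12.4, 15.4 and 15.7 CPM with iBRD9 (-0.43, SE 0.179, edgeR adjusted p = 0.0644), with -0.24 without DMSO replicate 1 (adjusted p = 0.0578) and a call at -0.60 without DMSO replicate 3 (adjusted p = 0.00842).

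**Figure D2:**
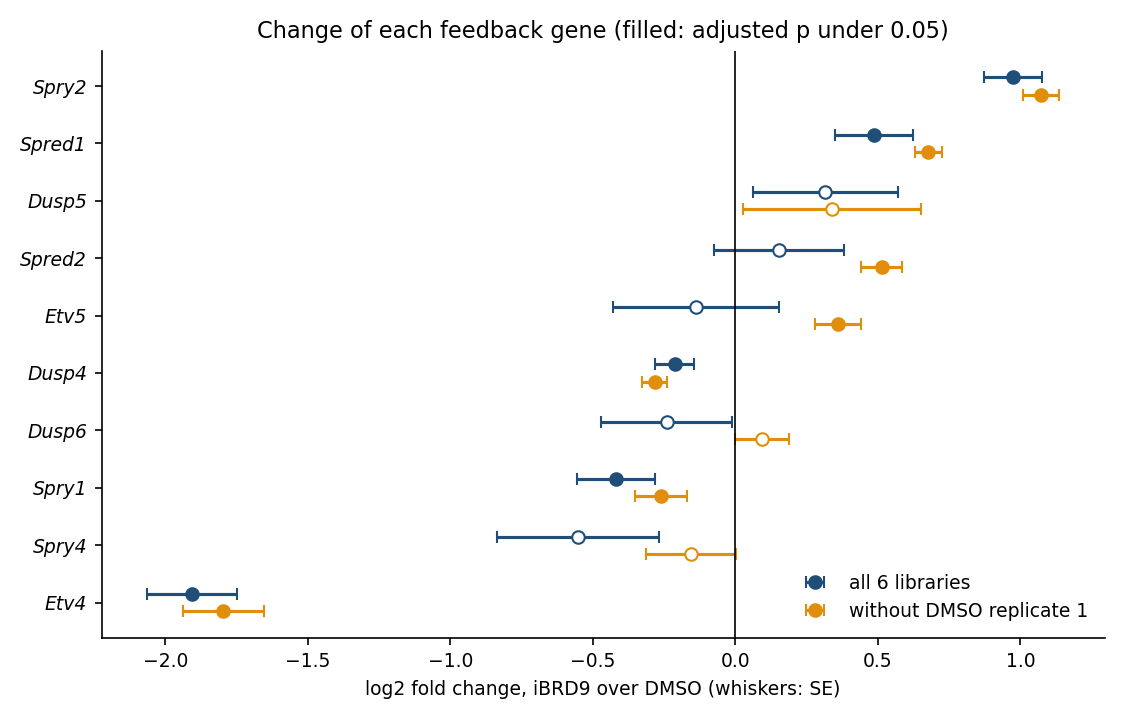
Log2 fold change of iBRD9 over DMSO for each feedback gene with its standard error, from all 6 libraries (blue) and without DMSO replicate 1 (orange). Filled points have an adjusted p under 0.05. Leaving out that library kept the calls of Spry2, Spred1, Dusp4, Spry1 and Etv4, added Spred2 (0.51) and Etv5 (0.36), and moved Dusp6 from -0.24 to 0.09.

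Of the 5 genes that were not called, 4 had the widest gaps of the 10 between DMSO replicate 1 and the other vehicle libraries. DMSO replicate 1 lay above both other DMSO libraries in 8 of the 10 feedback genes, against 43.0% of all tested genes, and above every other library in 6 of them, against 14.2%. The gap was at least 2-fold in 1 of the 10, Etv5, against 3.91% of all tested genes. The log2 gap of DMSO replicate 1 to the mean of DMSO replicates 2 and 3 was 1.18 for Etv5, 0.99 for Spry4, 0.91 for Spred2 and 0.87 for Dusp6. Only 2.43%, 3.96%, 4.79% and 5.18% of tested genes had larger gaps than these. The median gap was 0.49 over the 10 genes and -0.002 over all tested genes, of which 90% lay between -0.51 and 0.89. Dusp4 went the other way (-0.19), and Etv4 (0.33) and Spry2 (0.31) had modest gaps. Outside the 10, the gap was 0.55 for Etv1 and 0.40 for Spred3. DMSO replicate 1 also lay above both other DMSO libraries in 7 of 12 other transcripts that ERK induces. The same held for 3 of 7 other MAP kinase phosphatases and 7 of 20 tested genes of the cascade's core.

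**Figure D3:**
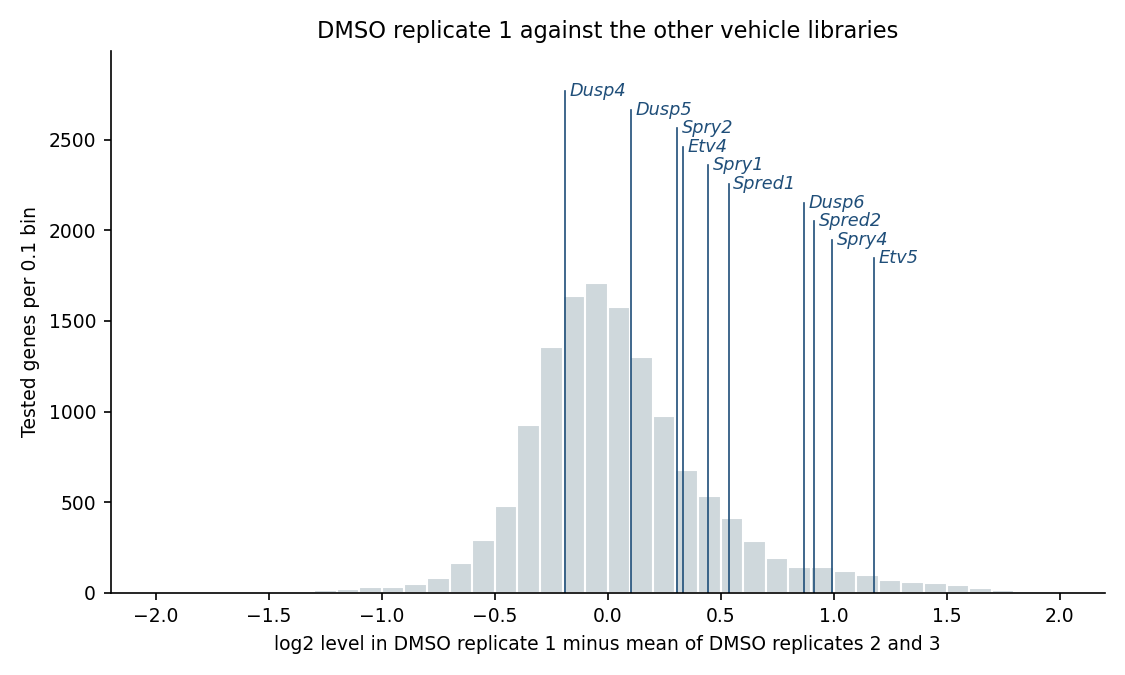
Gap between DMSO replicate 1 and the mean of DMSO replicates 2 and 3 on the log2 CPM scale. Bars count tested genes per bin of 0.1 and lines mark the 10 feedback genes, whose height has no meaning; 24 tested genes lie outside the axis. Dusp6, Spred2, Spry4 and Etv5 sit in the upper tail, at 0.87 to 1.18.

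Ratios within a library do not depend on how libraries are scaled. They hold the genes' lengths too, so their change is the quantity of interest, and it is given with no test. The log2 ratio of Spry2 to Spry4 counts was 1.8, 2.77 and 2.22 with DMSO and 3.88, 3.56 and 3.70 with iBRD9. That of Etv5 to Etv4 was 2.06, 1.27 and 1.16 with DMSO and 3.41, 3.28 and 3.42 with iBRD9. In both families the iBRD9 libraries lay above all DMSO libraries, by 1.45 and 1.88 on the log2 scale between the means. The log2 ratio of Spred2 to Spred1 was -1.46, -1.83 and -1.84 with DMSO and -2.00, -1.89 and -2.11 with iBRD9, also without overlap. The log2 ratio of Dusp4 to Dusp6 was 2.87, 3.80 and 4.06 with DMSO and 3.69, 3.53 and 3.42 with iBRD9, where the groups overlapped.

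Between genes, levels were compared per kilobase of exon, with lengths from GENCODE M21, which annotates GRCm38 where the submitters' notes name GRCm39. With DMSO, Dusp4 led at 165 ± 12.3 CPM per kb. Spred1 (14.0 ± 3.18), Spry2 (13.4 ± 1.87) and Dusp6 (12.7 ± 4.79) followed and did not differ from each other beyond their spread, nor did Etv5 (6.52 ± 3.36), Spred2 (6.48 ± 2.56) and Spry1 (6.09 ± 1.14 CPM per kb). Etv4 (2.84 ± 0.397), Spry4 (1.30 ± 0.572) and Dusp5 (0.355 ± 0.0784 CPM per kb) were lowest. With iBRD9, Spry2 (26.4 ± 1.15) stood above Spred1 (19.6 ± 0.753) and Dusp6 (10.7 ± 1.29 CPM per kb) with no overlap of libraries, and Etv4 (0.758 ± 0.0926) was no longer above Spry4 (0.886 ± 0.112 CPM per kb), with which it overlapped.

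Of the other MAP kinase phosphatases 1 of 7 was higher and 2 were lower, where 29.8% of all tested genes were higher and 30.9% lower (median -0.05). Dusp1, an immediate early phosphatase of the nucleus, rose from 14.3, 13.3 and 13.2 CPM with DMSO to 19.6, 22.3 and 25.0 CPM with iBRD9 (0.71, edgeR adjusted p = 0.000607). Dusp8 and Dusp16, which act mainly on the stress kinases JNK and p38, fell. Dusp8 went from 16.5 ± 2.27 to 9.59 ± 0.0938 CPM (-0.78, adjusted p = 0.000624) and Dusp16 from 73.6 ± 13.2 to 46.3 ± 2.58 CPM (-0.67, adjusted p = 0.00199). Dusp2 (0.34, adjusted p = 0.0637), Dusp7 (-0.05), Dusp10 (-0.19) and Dusp9 (0.80, at 0.322 ± 0.175 and 0.545 ± 0.242 CPM) did not pass. Dusp2 passed with library size alone (0.44, adjusted p = 0.0302) and without DMSO replicate 1 (0.44, adjusted p = 0.00564).

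In the core of the cascade 8 of 20 tested genes fell and 4 rose (median 0.01), against 30.9% and 29.8% of all tested genes. Mapk3, which encodes ERK1, fell from 152, 179 and 184 CPM with DMSO to 88.8, 94.2 and 91.7 CPM with iBRD9 (-0.91, SE 0.079, edgeR adjusted p = 4.17e-05). The adaptor gene Gab1 fell as well, from 66.1 ± 7.04 to 38.0 ± 0.817 CPM (-0.80, adjusted p = 0.000113). Rps6ka1, a kinase activated by ERK, rose (0.59, adjusted p = 0.000612), as did Hras (0.30, adjusted p = 0.00948) and the adaptor gene Grb2 (0.27, adjusted p = 0.00438). Egfr was near 0 in every library, with at most 0.0394 CPM. With library size alone, 7 core genes were called higher.

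The genes listed as RAS exchange factors include Rasgrp3, whose product diacylglycerol and phorbol esters recruit. Rasgrp3 fell from 49.7 ± 1.73 to 39.7 ± 2.98 CPM (-0.32, edgeR adjusted p = 0.00529). Rasgrp2, named after its values were seen, was the other tested gene of the 4 listed. It was called higher at 0.290 ± 0.0278 and 0.592 ± 0.152 CPM (1.03, adjusted p = 0.0300), a call that was lost without any 1 library other than iBRD9 replicate 3. Among RAS GTPase activators 4 of 7 tested genes fell and 1 rose (median -0.18), against 30.9% and 29.8% of all tested genes. Nf1, the partner of SPRED1, fell from 251 ± 7.09 to 211 ± 9.21 CPM (-0.25, adjusted p = 0.00490), with Dab2ip (-0.29, adjusted p = 0.00259) and Rasa1 (-0.20, adjusted p = 0.0169). Rasal2 rose (0.46, adjusted p = 0.00752). The count of activators that fell was 2 without DMSO replicate 2, without iBRD9 replicate 1 or without iBRD9 replicate 2, where Rasa1 was not called.

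Of 9 genes whose products act on Sprouty or ETV proteins or on ETV transcription, 3 rose and 3 fell (median -0.03), close to the 29.8% and 30.9% of all tested genes. Det1 and Cop1 encode parts of a ubiquitin ligase that degrades the PEA3 factors. Det1 fell from 17.9, 26.5 and 28.1 CPM with DMSO to 10.3, 9.81 and 9.20 CPM with iBRD9 (-1.31, SE 0.164, edgeR adjusted p = 0.000268), and Cop1 fell from 176 ± 6.81 to 142 ± 5.00 CPM (-0.31, adjusted p = 0.00186). Cic, the octamer-binding repressor, rose from 130.1 ± 8.90 to 203 ± 1.36 CPM (0.64, adjusted p = 7.08e-05), and its partner genes Atxn1 (0.08) and Atxn1l (-0.04) did not pass. Siah2, a ubiquitin ligase of Sprouty 2, fell from 53.4 ± 3.72 to 31.0 ± 1.06 CPM (-0.78, adjusted p = 5.85e-05). Cblb, of the CBL family of ubiquitin ligases, rose from 16.2 ± 0.619 to 29.8 ± 0.949 CPM (0.88, adjusted p = 3.49e-05), while Cbl stood at 64.6 ± 3.16 and 63.1 ± 1.93 CPM (-0.03, adjusted p = 0.663). Tesk1, a kinase that binds Sprouty proteins, rose (0.54, adjusted p = 0.000698).

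Of other transcripts that ERK induces 4 of 12 rose, 4 fell and 4 did not pass (median -0.005), also close to the 29.8% and 30.9% of all tested genes. Myc fell from 83.6, 64.0 and 64.7 CPM with DMSO to 32.6, 37.7 and 36.4 CPM with iBRD9 (-0.99, edgeR adjusted p = 0.000172). Phlda1 fell from 46.8 ± 3.50 to 25.7 ± 1.35 CPM (-0.87, adjusted p = 5.43e-05) and Mafk by 0.33 on the log2 scale (adjusted p = 0.00322). The receptor gene Epha4 rose from 5.93 ± 0.760 to 11.9 ± 0.379 CPM (1.01, adjusted p = 0.000189), with Epha2 (0.30, adjusted p = 0.0208). Sh2b3, an adaptor that restrains cytokine receptor signals, rose from 36.9 ± 6.46 to 72.2 ± 1.93 CPM (0.97, adjusted p = 0.000184). The count of risen transcripts was 2 without DMSO replicate 2, without iBRD9 replicate 1 or without iBRD9 replicate 3, where Epha2 was not called.

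**Figure D4:**
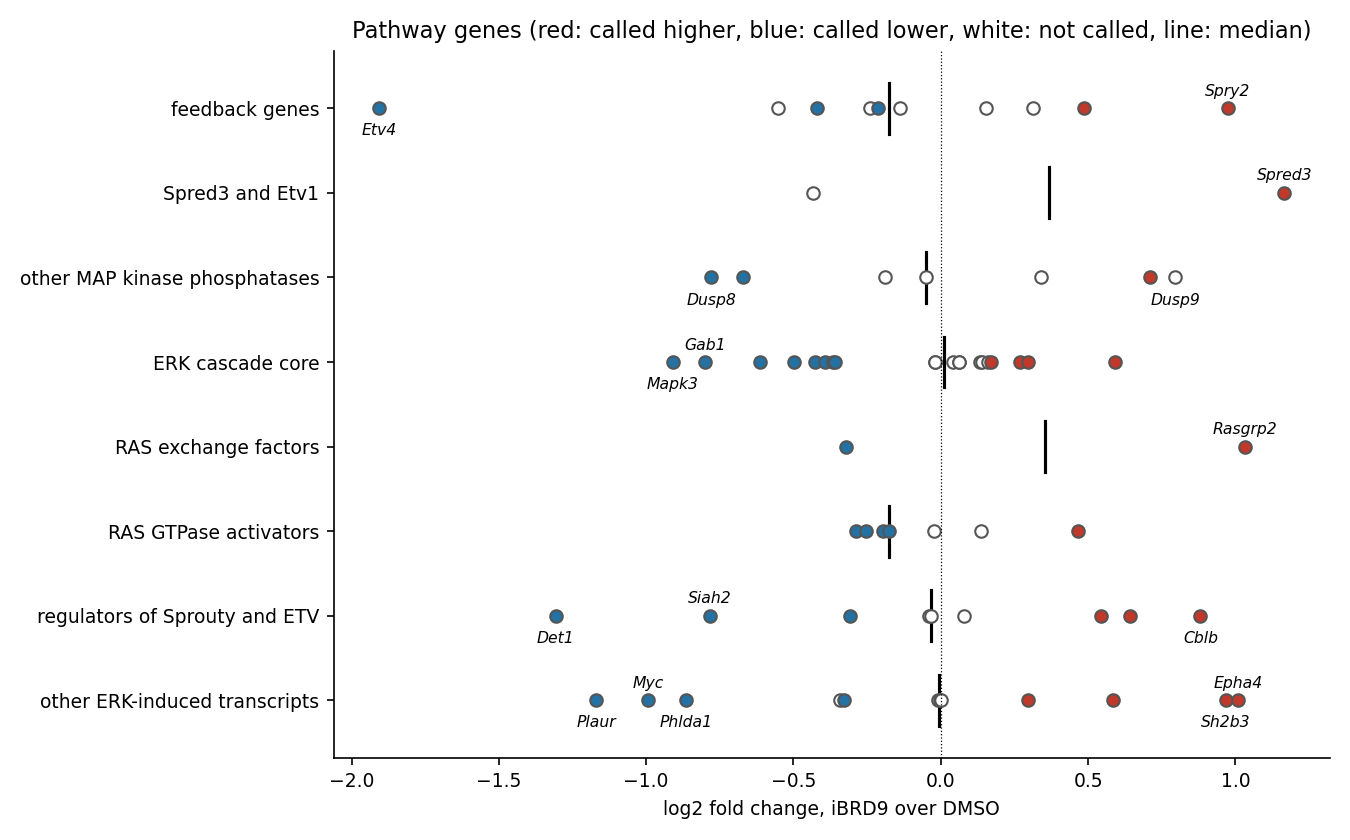
Log2 fold change of iBRD9 over DMSO for the tested genes of each pathway list, 1 point per gene, red where called higher, blue where called lower and white where not called; the black line is the list's median. Genes beyond 0.75 either way are labelled. Each list of more than 2 tested genes holds calls in both directions, and the medians of the 6 such lists run from -0.18 to 0.01.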

How the data were processed

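The authors deposited unnormalized read counts, with a row for each Ensembl ID and a column for each library. The submitters' processing notes name CASAVA 1.8.2, Bowtie2 2.4.5 and the build GRCm39; which program counted reads, with which annotation and strand setting, is not given in the sources used here, so reads of overlapping or antisense genes cannot be told apart. The reference at hand is of GRCm38, so it served for symbols (34490 IDs matched), exon lengths and RefSeq sequences only.

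Counts were used unchanged. Genes were kept by filterByExpr (minimum count 10), which left 13602 of 35275 IDs, scaled by TMM and tested two-sided with edgeR 4.0.16 (R 4.3.3), all 6 libraries, treatment as the sole term. Log2 CPM used a prior count of 2. A standard error is the log2 fold change divided by the root of its F statistic. The script was first tested on simulated counts with known changes. It recovered 66 of 98 changes of 1.5-fold and 79 of 95 of 2-fold, and 4.61% of its calls were unchanged genes. The simulation held no outlying library and far fewer changed genes than were called here. Within groups, chi-square per degree of freedom ran from 1.93 to 37.5, so no library was a mere resampling of another's reads. The measure cannot tell whether libraries came from the same culture or RNA. P-values set the difference between treatments against the spread between these samples of 1 cell line, and say nothing of other lines.

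The feedback genes and all lists were chosen with earlier results of these data known. Named genes were the 10 feedback genes, all members of the family and phosphatase lists, and from other lists up to 3 higher and 3 lower called genes of the largest change whose log2 CPM averaged 1 or more; the genes most like Spry2 and Etv4 were the 3 of highest r. Rasgrp2, Egfr, Cbl, Atxn1, Atxn1l and the cell type markers given singly fall outside this rule and were chosen after their values were seen, and some genes that the rule picks are not reported here. Alternatives were DESeq2 size factors, library size alone, DESeq2 1.42.0, limma-voom (limma 3.58.1), no filter, 1 CPM in 3 libraries, a replicate block, a threshold of 0.01 on adjusted p, and each library left out in turn. Figures used matplotlib 3.10.9.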

Additional observations from a re-analysis of the deposited data

How the results depend on the processing

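The signs of Spry2, Spred1, Etv4, Spry1 and Dusp4 held in all 14 alternatives, and the calls of Spry2 and Etv4 did as well. Etv5 turned from -0.14 to 0.36 without DMSO replicate 1 and was -0.36 without DMSO replicate 3. Leaving out 1 library, feedback genes called ran from 1 to 4 higher and from 1 to 3 lower. Over all tested genes the calls then ran from 3235 to 5159 higher and from 3558 to 5152 lower. The same range was 0 to 1 lower for Spred3 and Etv1, 1 to 2 higher for the other phosphatases, 0 to 1 higher for the RAS exchange factors, 2 to 4 lower for RAS GTPase activators and 2 to 5 higher for other ERK-induced transcripts. With an adjusted p under 0.01, 2834 of all 13602 tested genes were higher and 3238 lower. At that threshold 1 feedback gene was higher and 1 lower. There 0 RAS exchange factors were higher, 2 RAS GTPase activators lower and 2 other ERK-induced transcripts higher. Library size alone moved the median log2 fold change of all genes by 0.11, to 4999 genes called higher and 3385 lower against 4057 and 4205. It left 1 feedback gene lower, 2 phosphatases and 7 core genes higher, and 2 RAS GTPase activators lower. Rasgrp2 left 0 RAS exchange factors higher with DESeq2, with the filter at 1 CPM, where it was not tested, and with the replicate block; Etv1 was called lower with DESeq2, giving 1. The causes were not tested.

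Whether equal replicate numbers mark paired libraries was not settled. Between libraries of equal number, deviations from the group means correlated weakly, at 0.12, 0.06 and 0.02. Of the 6 libraries, 4 correlated best with their own number. With the replicate block, 3920 genes were called higher and 4017 lower, and 2 feedback genes higher and 3 lower. Without 1 library, the difference in the log2 ratio of Dusp4 to Dusp6 ran from -0.38 to 0.21 and changed sign, and that of Spred2 to Spred1 moved from -0.29 to -0.16 without DMSO replicate 1. Depth limits Dusp5 (17 to 37 counts) most; every other feedback gene had at least 53 counts in each library.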

Other observations

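The genes whose pattern over the 6 libraries was most like that of Spry2 were Thrap3 (Pearson r of log2 CPM 0.9996), Myo9b (0.9994) and Vkorc1l1 (0.9993). Thrap3, a protein of RNA processing, rose by less, from 221, 204 and 193 CPM with DMSO to 288, 291 and 297 CPM with iBRD9. Those most like Etv4 were Rsbn1l (0.9993), the small GTPase gene Rhoc (0.9988) and the calcium-binding protein gene Sri (0.9983). Rhoc fell from 84.4, 80.9 and 80.3 CPM to 54.2, 57.9 and 54.2 CPM. The libraries fall into 2 groups, so an r over 6 points mostly reads the treatment: 1554 of 9975 genes compared had an r over 0.95 with Spry2, and 1088 had one with Etv4.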
